A study of Mus musculus with 8 samples.

Results

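The genes described here are 9 components of the Hedgehog signalling pathway in mouse embryonic stem cells, whose RNA was measured on Agilent arrays with 1 colour. They are Hhip, Ptch1, Boc and Gas1, which act at the cell surface, the signal transducer Smo, the inhibitor Sufu, and the transcription factors Gli1, Gli2 and Gli3. A probe was assigned to a gene where its RefSeq accession on the array mapped to that symbol. The 9 symbols were chosen by their processed signals on these same 8 arrays, with the comparisons between the groups already known. Their levels and differences are therefore given as descriptions, and counts of them past a threshold support nothing and stand beside the share of all genes past it. All 9 were measured, by 14 probes, among 22687 genes and unnamed features that passed the filter on dim probes. Of the 14 probes 11 passed that filter, at least 1 for each gene.

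Each of the 4 groups had 2 arrays, labelled replicates 1 and 2 and said by the series' design text to be biological. All cells, untreated ones included, grew with LIF, a cytokine that holds embryonic stem cells undifferentiated, and with 250 nM PD173074, which inhibits FGF receptors. Inhibited cells had 250 nM 4OHT (4-hydroxytamoxifen) for 8 h followed by 2 h in 1 µM PD0325901, which blocks the kinase MEK. The other groups were untreated cells and cells with the same dose of 4OHT for 8 h (4OHT 8h) or 10 h (4OHT 10h). In engineered cells 4OHT activates fusions with a mutant oestrogen receptor; which fusion, strain or clone was used is not given in the labels, nor whether 4OHT was still present during the inhibition. ERK, the kinase that MEK activates, is named in the title of the series, and the question put to the Hedgehog genes was which of them differed after 4OHT and which differed again once MEK was blocked. The 2 arrays a group limit the precision, and since separate cultures are not described, the tests may weigh differences against a technical spread alone.

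Hedgehog ligands bind the receptor Patched, which without ligand keeps the membrane protein Smoothened inactive. Once released, Smoothened acts at the primary cilium to turn GLI proteins from repressors into activators, while SUFU holds them back. Ptch1, Hhip and Gli1 are themselves classic GLI targets, so Hhip and Ptch1, which both restrain the ligand, form a negative feedback. The pathway patterns many tissues of the embryo, the neural tube and limb among them.

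All values below are log2 of the background-subtracted signal relative to the array's 75th percentile, so 0 is the level of that percentile and a unit is a doubling of signal. Levels of different probes are not compared. Between 30218 and 37789 of 59305 non-control spots per array were well above background, 36889 or more on each replicate 1 array and 31433 or fewer on each replicate 2 array. The 10 embryonic stem cell markers were above background on every array. Of these, Nanog had a log2 signal of 3.54 and 3.19 in inhibited cells and 4.78 and 4.83 in untreated cells. It had 2.31 and 2.12 at 4OHT 8h, and 1.93 and 1.48 at 4OHT 10h, the order of groups of Hhip. Dppa4 was instead higher at 4OHT 10h (4.36 and 4.36, against 3.34 and 3.48 in untreated cells). So was Sox2 (4.29 and 4.23, against 3.93 and 4.11), while Zfp42 was lower (6.95 and 6.70, against 7.01 and 7.17). The summed signal of the 10, in units of the 75th percentile, was 781 to 893 in inhibited cells and 869 to 894 in untreated cells. It was 926 to 972 at 4OHT 8h and 933 to 972 at 4OHT 10h. Dusp6, an ERK phosphatase gene that ERK itself induces, stood at 0.54 ± 0.16 in inhibited cells, 3.45 ± 0.02 in untreated cells, 6.29 ± 0.04 at 4OHT 8h and 6.40 ± 0.03 at 4OHT 10h (SD, n = 2 each). Among markers of other cell types, the summed signal of 12 primitive endoderm genes, in units of the 75th percentile, was 65.5 to 92.8 on replicate 1 arrays and 29.2 to 45.2 on replicate 2 arrays, so it went with the replicate number. Within each replicate it was highest in inhibited cells (92.8 and 45.2, against 72.0 and 37.2 in untreated cells). Lama1 carried most of it (log2 6.38 and 5.40 in inhibited cells, against 5.94 and 5.08 in untreated cells). Gata6 (-0.69 and -2.58, against -0.30 and -2.26) and Sox17 (-2.12 and -4.43, against -1.29 and -2.90) were instead lowest in inhibited cells. The sum of 10 fibroblast genes was 14.6 to 26.1 in inhibited cells, 3.50 to 4.56 in untreated cells, 18.2 to 37.9 at 4OHT 8h and 19.7 to 41.7 at 4OHT 10h. Thy1 carried most of it (log2 5.21 and 4.11 at 4OHT 8h, against 1.63 and 0.70 in untreated cells), whereas Lum was above background on 0 arrays, and Dcn and Postn on 1 each. Other fibroblast genes were lower at 4OHT 8h, such as Fbln2 (-2.99 and -2.90, against -1.69 and -2.07 in untreated cells) and Mmp2 (-1.22 and -1.45, against -0.69 and -0.80), and the list's median was -3.23 and -3.42 at 4OHT 8h, against -2.80 and -2.39 in untreated cells. The sum of 8 trophoblast genes was 21.4 to 21.6 in inhibited cells, 9.20 to 9.80 in untreated cells, 9.27 to 11.5 at 4OHT 8h and 10.8 to 15.2 at 4OHT 10h, with Elf5 above background on 1 array. Its members did not all run one way at 4OHT 8h: Cdx2 had 2.07 and 2.60, against -4.41 and -3.65 in untreated cells, and Hand1 -0.89 and -1.19, against -5.27 and -5.62, but Tfap2c had 0.72 and 0.59, against 2.50 and 2.34, and Ascl2 0.13 and 0.71, against 1.55 and 1.99. In inhibited cells Ascl2 (2.86 and 3.38, against 0.38 and 0.76 at 4OHT 10h) and Tfap2c (3.29 and 2.53, against 1.45 and 1.33) were higher. Cdx2 (0.78 and 1.44, against 2.06 and 2.95) and Hand1 (-1.37 and -1.43, against -0.35 and -0.55) were lower there. The list's median was -0.05 and -0.15 in inhibited cells, -3.30 and -2.75 in untreated cells, -0.38 and -0.27 at 4OHT 8h, and -0.06 and 0.08 at 4OHT 10h. The sum of 8 neural progenitor genes was 4.29 to 4.57 in inhibited cells, 3.13 to 3.14 in untreated cells, 5.24 to 5.49 at 4OHT 8h and 5.05 to 5.93 at 4OHT 10h, with Olig2 above background on 0 arrays. The part of these marker differences in the results below was not tested, and in such bulk samples fewer cells expressing a gene and less RNA per cell cannot be told apart.

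After 4OHT the levels of Hhip, Ptch1, Boc, Smo and Gli2 were below those of untreated cells. The log2 differences of Ptch1, Boc, Smo and Gli2 were -0.62 to -1.62. Hhip, whose signals with 4OHT alone were not well above background, was at least 10.9-fold lower in the processed signal. Gas1, Sufu, Gli1 and Gli3 differed by -0.36 to 0.31. After 2 h of MEK inhibition Ptch1 stood 1.68 above 4OHT 10h and Hhip, in the processed signal, at least 2.25-fold above it. In a limma fit over all genes, with Benjamini-Hochberg adjustment and a threshold of 0.05, the 5 genes named first were past the threshold at 4OHT 8h against untreated cells, all lower, where 21.7% of all genes were past it (10.3% higher and 11.5% lower). The same 5 were past it at 4OHT 10h, where 27.9% of all genes were (13.1% higher and 14.8% lower). In inhibited cells against 4OHT 10h, Hhip and Ptch1 were past it, both higher, against 6.12% of all genes (3.24% higher and 2.87% lower). In inhibited against untreated cells, Gli1 was past it on the higher side and Hhip and Smo on the lower, against 15.9% of all genes (7.06% higher and 8.8% lower). The median log2 difference of the 9 genes in these comparisons, in that order, was -0.62, -0.76, 0.39 and -0.37, beside -0.04, -0.05, -0.04 and -0.07 for all genes tested. The arrays of the groups compared did not overlap for 8, 8, 5 and 9 of the 9 genes, which is also true of 63.7%, 68.7%, 52.3% and 60.3% of all genes, so that lack of overlap at 2 arrays against 2 is common here. Since the genes were selected on values that include these contrasts, nothing is read from these counts. The comparisons with untreated cells share the untreated arrays, and those with 4OHT 10h share the 4OHT 10h arrays.

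**Figure D1:**
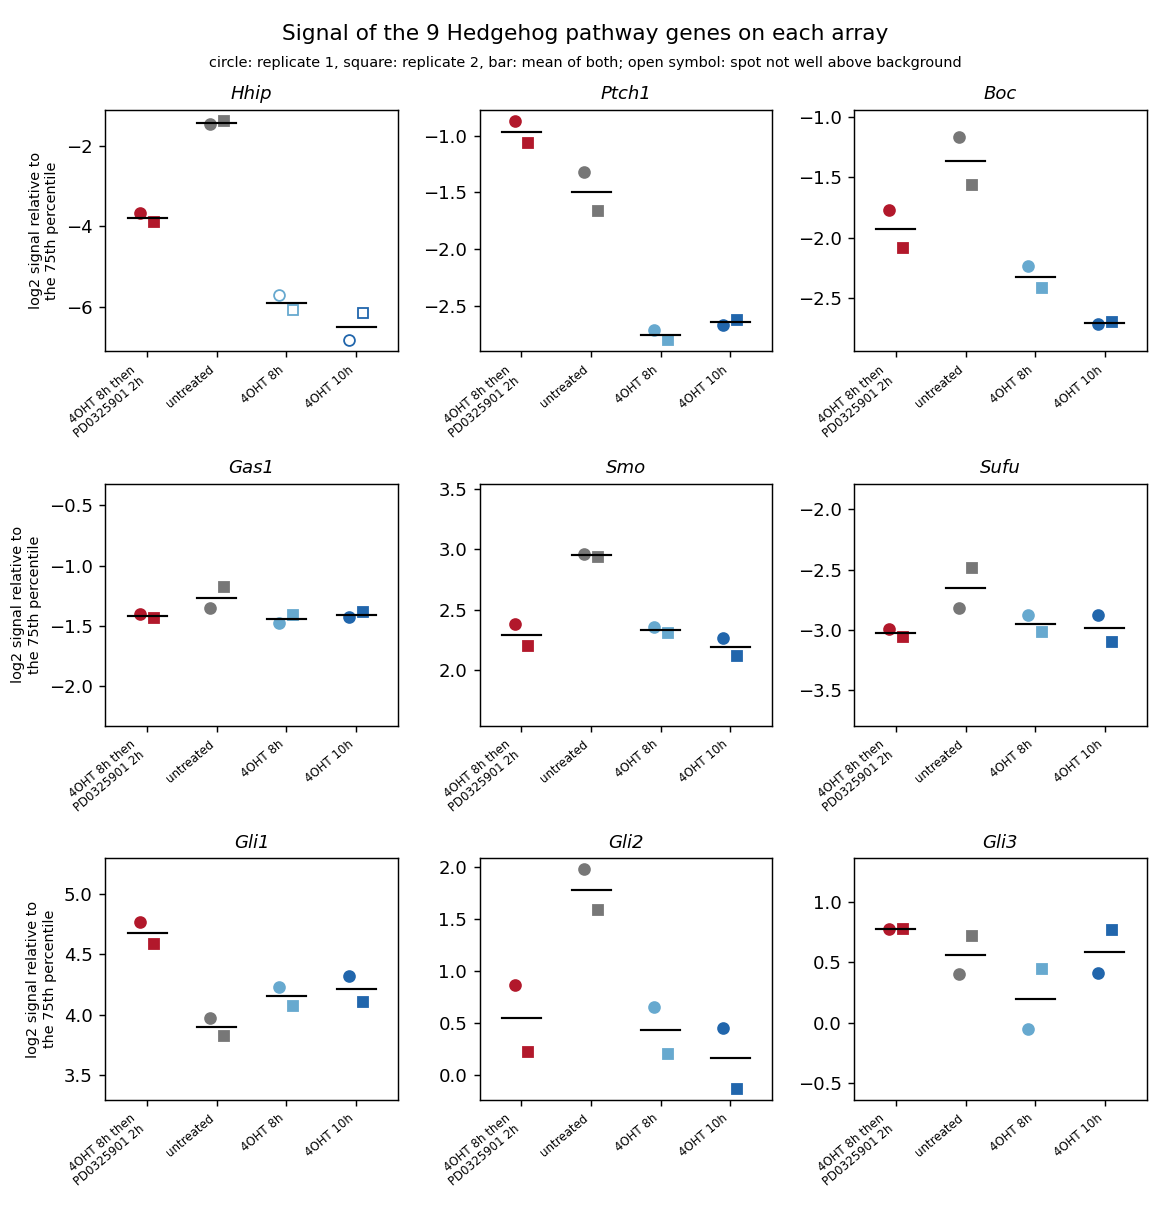
Each panel plots the log2 signal of 1 Hedgehog gene relative to the array's 75th percentile (y axis, scale of its own) on the 8 arrays by group (x axis), with circles for replicate 1, squares for replicate 2, bars for group means and open symbols for spots not well above background. Hhip is near -1.4 in untreated cells and near -6 after 4OHT with open symbols, Ptch1 is highest in inhibited cells, and Gas1, Sufu and Gli3 move little between groups.

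Hhip encodes a membrane protein that binds Hedgehog ligands and keeps them from signalling. It had a log2 signal of -3.67 and -3.89 in inhibited cells, -1.46 and -1.38 in untreated cells, -5.72 and -6.07 at 4OHT 8h, and -6.84 and -6.16 at 4OHT 10h. The untreated arrays were highest, the inhibited arrays lay between, and all 4 arrays with 4OHT alone were lowest and not well above background, with no overlap between these 3 levels. In the raw processed signal this was 24.2 and 22.5 units in inhibited cells, 142.3 and 134.5 in untreated cells, 6.40 and 5.46 at 4OHT 8h, and 2.89 and 4.63 at 4OHT 10h. Since the 4OHT values are below what the arrays measure, the folds there are bounds, which hold for the processed signal alone. For these, each dim array's value was set to its lowest signal well above background, or to its own signal where that was higher. Hhip was at least 10.9-fold lower at 4OHT 8h than in untreated cells, at least 11.5-fold lower at 4OHT 10h, and at least 2.25-fold higher in inhibited cells than at 4OHT 10h. Inhibited cells were still 5.13-fold below untreated cells (-2.36 ± 0.24, standard error of the fit). The differences fitted to the dim signals were -4.47 ± 0.24 and -5.08 ± 0.24 for 4OHT 8h and 10h against untreated cells and 2.72 ± 0.24 for inhibited cells against 4OHT 10h. With normexp background correction, which adds an offset of 50, they were -1.34 and -1.31 and 0.43, and -0.88 for inhibited against untreated cells. These are smaller than the bounds above, so the size of the Hhip difference depends on how dim signals are treated.

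The other Hhip probe, A_51_P416822, was well above background on 1 array, untreated replicate 1, and was not used. It read -6.98 and -6.39 in inhibited cells, -4.85 and -4.55 in untreated cells, -7.55 and -6.12 at 4OHT 8h, and -7.57 and -6.19 at 4OHT 10h. On this probe too the untreated arrays were highest, while the inhibited arrays lay within the range of the 4OHT arrays, so the intermediate level seen with A_55_P1969276 was not resolved by it.

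Ptch1 encodes the main Hedgehog receptor. Its log2 signal was -0.87 and -1.07 in inhibited cells, -1.32 and -1.66 in untreated cells, -2.72 and -2.81 at 4OHT 8h, and -2.67 and -2.62 at 4OHT 10h. The order thus ran from inhibited cells, through untreated cells, to the 4OHT groups, and no array of one of these 3 levels overlapped another, while the 8 h and 10 h means differed by less than their standard error. Ptch1 was lower by a log2 difference of -1.27 ± 0.14 (2.41-fold) at 4OHT 8h and -1.15 ± 0.14 (2.23-fold) at 4OHT 10h, against untreated cells. It was higher by 1.68 ± 0.14 (3.21-fold) in inhibited cells than at 4OHT 10h. Against untreated cells, inhibited cells were higher by 0.53 ± 0.14 (1.44-fold). With normexp the first 3 of these differences were -0.58, -0.51 and 0.97. A single probe on the array measured Ptch1.

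Hhip, Ptch1 and Gli2 had the widest spans of group means among the 9 genes (5.08, 1.80 and 1.62 on the log2 scale), and their proximal promoters are shown for that reason, from 250 bases before to 50 after the gene start, as RefSeq gives them for GRCm38.p6. All 3 lie on the minus strand and read 5′ to 3′, at chr8:80057959-80058258 for Hhip, chr13:63565686-63565985 for Ptch1 and chr1:119053570-119053869 for Gli2. Capitals mark CCACCC, the core of the GLI binding motif, or its reverse complement GGGTGG.
Hhip: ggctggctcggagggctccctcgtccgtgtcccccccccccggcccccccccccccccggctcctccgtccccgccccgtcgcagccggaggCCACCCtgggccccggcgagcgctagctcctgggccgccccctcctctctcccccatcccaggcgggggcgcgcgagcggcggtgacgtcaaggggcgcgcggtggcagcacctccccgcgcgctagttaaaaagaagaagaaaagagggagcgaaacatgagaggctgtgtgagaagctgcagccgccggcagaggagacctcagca
Ptch1: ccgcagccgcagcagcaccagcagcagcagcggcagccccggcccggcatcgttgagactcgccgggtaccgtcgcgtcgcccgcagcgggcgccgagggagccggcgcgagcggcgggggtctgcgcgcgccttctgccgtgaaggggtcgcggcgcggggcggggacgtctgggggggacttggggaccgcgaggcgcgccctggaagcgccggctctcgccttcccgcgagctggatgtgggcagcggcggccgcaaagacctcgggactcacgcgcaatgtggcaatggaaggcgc
Gli2: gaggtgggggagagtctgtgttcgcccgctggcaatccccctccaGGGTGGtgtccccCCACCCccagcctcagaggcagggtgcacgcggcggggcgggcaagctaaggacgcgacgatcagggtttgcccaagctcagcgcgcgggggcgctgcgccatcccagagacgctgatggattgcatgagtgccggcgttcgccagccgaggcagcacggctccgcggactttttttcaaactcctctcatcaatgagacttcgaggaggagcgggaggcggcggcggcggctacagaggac
The RefSeq table held promoters of 7 of the 9 genes, without Gli1 and Boc. The full GLI motif GACCACCCA, searched on both strands (TGGGTGGTC), was in 0 of these 7 windows and in 83 of 32851 mouse promoters (0.253%). The 6-base core, a search added after the full motif gave none, was in 4 of the 7, namely Hhip, Gli2, Gli3 and Smo, and in 31.5% of all promoters. In Hhip it starts at -158 relative to the gene start, and the Ptch1 window does not hold it. A match describes letters in this window and is no evidence of binding.

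Boc and Gas1 encode cell-surface co-receptors that help present Hedgehog ligands to Patched. Boc had a log2 signal of -1.77 and -2.08 in inhibited cells, -1.17 and -1.56 in untreated cells, -2.23 and -2.42 at 4OHT 8h, and -2.71 and -2.70 at 4OHT 10h. No 2 groups overlapped, and the levels ran from untreated cells through inhibited cells and 4OHT 8h to 4OHT 10h, although the lower inhibited array was slightly above the higher 4OHT 8h array. Boc was lower at 4OHT 8h by a log2 difference of -0.96 ± 0.17 and at 4OHT 10h by -1.34 ± 0.17, against untreated cells. It was higher by 0.78 ± 0.17 in inhibited cells than at 4OHT 10h and lower than in untreated cells by a log2 difference of -0.56 ± 0.17. With normexp the first of these was 0.44.

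Gas1 did not show this pattern on the probe used. It had -1.40 and -1.43 in inhibited cells, -1.35 and -1.18 in untreated cells, -1.48 and -1.41 at 4OHT 8h, and -1.42 and -1.39 at 4OHT 10h. The untreated arrays were the highest, by little, and all 8 arrays lay within a narrow range. The log2 differences, -0.18 ± 0.08 and -0.14 ± 0.08 for 4OHT 8h and 10h against untreated cells and -0.01 ± 0.08 for inhibited cells against 4OHT 10h, were small, and centred on the array median the difference at 10 h was 0.05. Another Gas1 probe, A_51_P157083, was above background on 1 array, untreated replicate 1, and was not used. It read -5.35 and -5.48 in inhibited cells, -4.74 and -4.68 in untreated cells, -7.73 and -6.34 at 4OHT 8h, and -7.76 and -6.41 at 4OHT 10h. Its order of groups was thus that of Hhip, at signals the arrays do not resolve from background. The remaining Gas1 probe was above background on 0 arrays.

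Smo encodes Smoothened, the transducer that Patched restrains. Its log2 signal was 2.38 and 2.20 in inhibited cells, 2.96 and 2.94 in untreated cells, 2.35 and 2.31 at 4OHT 8h, and 2.26 and 2.12 at 4OHT 10h. Every array of the 3 treated groups lay below both untreated arrays, and the inhibited arrays overlapped those of both 4OHT groups. The log2 difference from untreated cells was -0.65 ± 0.09 in inhibited cells, -0.62 ± 0.09 at 4OHT 8h and -0.76 ± 0.09 at 4OHT 10h, and inhibited cells differed from 4OHT 10h by 0.10 ± 0.09. The other Smo probe, A_55_P2121484, read -1.59 and -1.65 in inhibited cells, -1.25 and -1.11 in untreated cells, -1.49 and -1.73 at 4OHT 8h, and -1.60 and -1.62 at 4OHT 10h. It too was highest in untreated cells, but the 3 treated groups overlapped with another order of means and the differences were smaller, -0.44, -0.43 and -0.43 against untreated cells for inhibited cells, 4OHT 8h and 4OHT 10h, and -0.01 for inhibited cells against 4OHT 10h.

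Sufu encodes the protein that binds GLI factors and retains them in an inactive complex. It had -2.99 and -3.05 in inhibited cells, -2.82 and -2.49 in untreated cells, -2.88 and -3.02 at 4OHT 8h, and -2.88 and -3.10 at 4OHT 10h. The untreated arrays were highest, and replicate 2 of them set most of the gap. The log2 difference from untreated cells was -0.37 ± 0.14 in inhibited cells, -0.29 ± 0.14 at 4OHT 8h and -0.33 ± 0.14 at 4OHT 10h. The other Sufu probe, A_51_P396550, gave 0.12, 0.28 and 0.05 in the same comparisons, on the opposite side of 0, so no direction is given for Sufu.

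**Figure D2:**
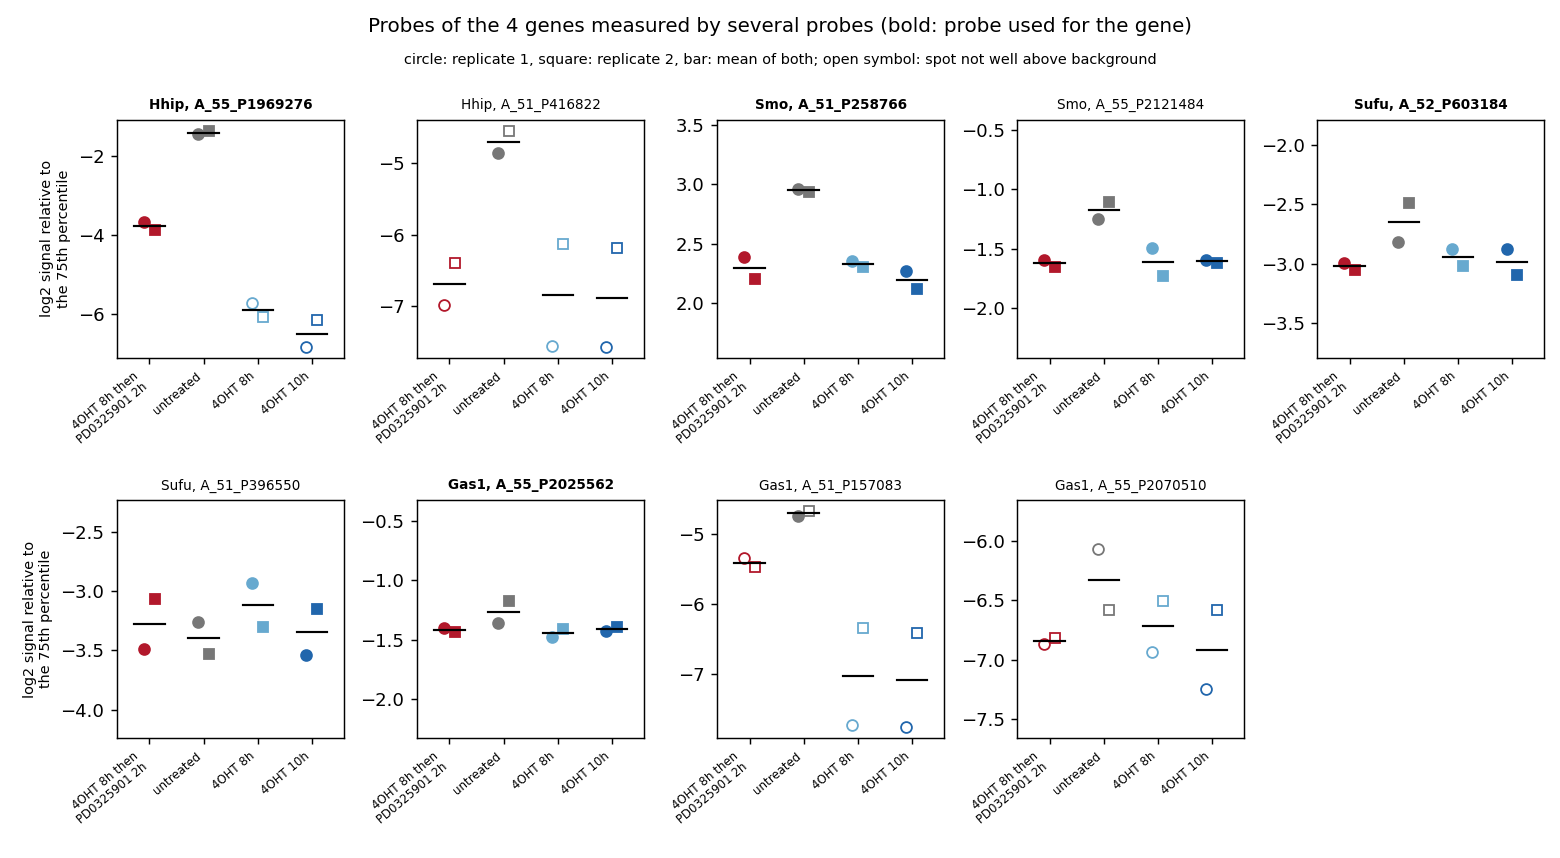
The panels show all 9 probes of the 4 genes with several probes, each as log2 signal relative to the array's 75th percentile (y axis, scale of its own) on the 8 arrays by group (x axis), with circles for replicate 1, squares for replicate 2, bars for group means, open symbols for spots not well above background and bold titles for the probe used. Both Smo probes are highest in untreated cells, the Sufu probes differ in order, and the unused Hhip and Gas1 probes lie near background.

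The 3 GLI transcription factor genes had different orders of groups. Gli1, an activator that the pathway induces, had a log2 signal of 4.77 and 4.59 in inhibited cells, 3.98 and 3.82 in untreated cells, 4.23 and 4.07 at 4OHT 8h, and 4.32 and 4.11 at 4OHT 10h. It was highest in inhibited cells and lowest in untreated cells, with the arrays of the 2 4OHT groups overlapping between them. The log2 difference from untreated cells was 0.78 ± 0.12 (1.71-fold) in inhibited cells, 0.25 ± 0.12 at 4OHT 8h and 0.31 ± 0.12 at 4OHT 10h, and inhibited cells were higher than 4OHT 10h by 0.47 ± 0.12. Gli1 thus stood above its untreated level at both 4OHT times, by differences not past the threshold of the limma fit, while Ptch1 and Hhip stood below theirs.

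Gli2, the main GLI activator and a partial repressor, had 0.87 and 0.22 in inhibited cells, 1.98 and 1.59 in untreated cells, 0.65 and 0.20 at 4OHT 8h, and 0.45 and -0.13 at 4OHT 10h. All treated arrays lay below both untreated arrays, and the 3 treated groups overlapped. In every group replicate 1 was higher than replicate 2, by 0.39 to 0.65 on the log2 scale. The log2 difference from untreated cells was -1.24 ± 0.32 in inhibited cells, -1.35 ± 0.32 at 4OHT 8h and -1.62 ± 0.32 at 4OHT 10h, and inhibited cells differed from 4OHT 10h by 0.39 ± 0.32. Leaving out either array of either group gave -1.13 to -1.58 at 8 h, where the difference then no longer passed the threshold. At 8 h that call was also lost when centred on the array median (-1.22). With no filter on dim probes the calls at 8 h and 10 h were both lost.

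Gli3, the main GLI repressor, had 0.77 and 0.77 in inhibited cells, 0.41 and 0.72 in untreated cells, -0.05 and 0.45 at 4OHT 8h, and 0.41 and 0.77 at 4OHT 10h. The groups overlapped except that both inhibited arrays lay at the top, by a margin smaller than the gap between replicates of the other groups. Replicate 1 minus replicate 2 averaged -0.29 over the 4 groups, with no such gap in inhibited cells, whereas it averaged 0.17 for Gli1 and 0.52 for Gli2. The log2 difference from untreated cells was 0.21 ± 0.21 in inhibited cells, -0.36 ± 0.21 at 4OHT 8h and 0.03 ± 0.21 at 4OHT 10h, each within 2 standard errors of 0. The replicate differences of Gli1 and Gli2 had the direction of the primitive endoderm markers, which were higher on replicate 1 arrays, and that of Gli3 had the opposite one. The part of the marker difference in those of these genes was not tested.

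**Figure D3:**
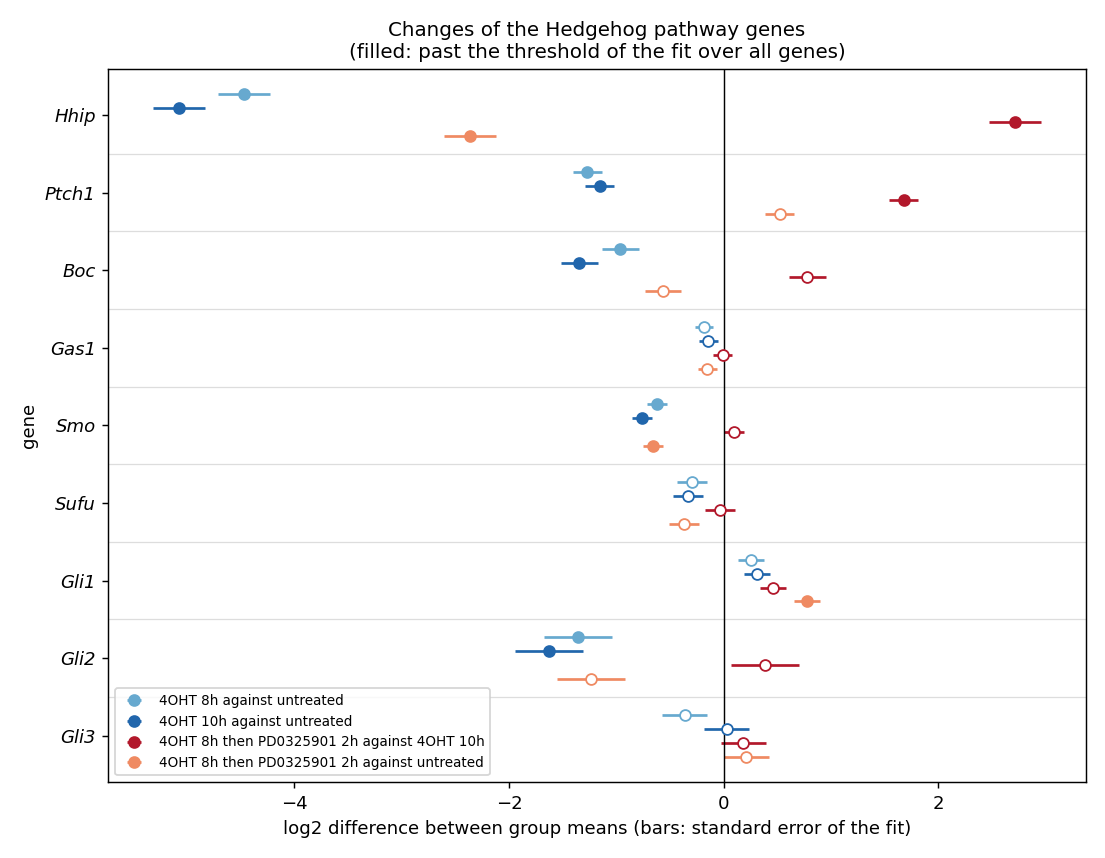
Points are log2 differences between group means (x axis) for each of the 9 genes (y axis) in the 4 comparisons, with bars for the standard error of the limma fit and filled points for differences past the threshold of the fit over all genes. Hhip reaches -5.08 at 4OHT 10h and 2.72 in inhibited cells against 4OHT 10h, with 4OHT values below what the arrays measure, and Ptch1 is the other gene with a filled point to the right in that comparison.

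Set side by side, the 5 genes with the lowest differences after 4OHT stood at different places in inhibited cells. Ptch1 was above both untreated arrays, Boc and Hhip lay between the untreated and 4OHT 10h arrays, and Smo and Gli2 overlapped 4OHT 10h. The log2 difference between inhibited cells and 4OHT 10h was 1.68 ± 0.14 for Ptch1 and 0.78 ± 0.17 for Boc, but 0.10 ± 0.09 for Smo and 0.39 ± 0.32 for Gli2. For Hhip it was at least 2.25-fold in the processed signal. No difference between genes was tested.

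The genes whose levels over the 8 arrays were most like those of the 4 most variable members were found by Pearson's r among 13811 named genes. The 8 arrays form 4 groups, so r mostly reflects the 4 group means, and it says nothing of shared control. Rassf4 (r = 0.996), Trim47 (0.994) and Prkca (0.994) were nearest to Hhip, and 313 genes had r above 0.95. Since the 4 Hhip values with 4OHT alone are not well above background, and the means of Rassf4 there are as low (-6.16 at 4OHT 8h and -6.70 at 4OHT 10h), these r and their order rest in part on signals the arrays do not measure. Among those nearest to Ptch1 were the Hes family gene Hes2 (0.994) and Kbtbd11 (0.994), with 93 genes above 0.95. Among those most like Gli2 were Tcn2 (0.997) and Leprot (0.995), with 303 genes above 0.95. Boc was most like H4c8 (0.989), Bcorl1 (0.989) and Mtmr4 (0.988), with 118 above 0.95, but H4c8 is one of many near-identical histone genes that a probe may not tell apart.

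The rest of the pathway was read from 62 further genes in 5 lists by role, of which 58 passed the filter on dim probes. At 4OHT 8h against untreated cells 5 of the 58 rose and 9 fell (24.1% past the threshold, where 21.7% of all genes were), with a median log2 difference of -0.11. At 4OHT 10h 8 rose and 11 fell (32.8% against 27.9%), with a median of -0.09. In inhibited cells against 4OHT 10h 5 rose and 3 fell (13.8% against 6.12%, median 0.03), and against untreated cells 5 rose and 7 fell (20.7% against 15.9%, median -0.06). The shares lie near those of all genes in the 4OHT comparisons. The p-values below are limma's, adjusted over all genes.

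Among ligands and their release, 1 of 6 tested genes passed after 4OHT (16.7%, where 21.7% of all genes passed at 4OHT 8h and 27.9% at 4OHT 10h). This gene was Dhh, which encodes Desert hedgehog, and it moved opposite to Hhip and Ptch1. It had -2.13 and -2.08 in inhibited cells, -3.37 and -3.27 in untreated cells, -0.65 and -1.0 at 4OHT 8h, and -1.31 and -1.32 at 4OHT 10h, with no overlap between any groups. Dhh rose by 2.50 ± 0.13 at 4OHT 8h (adjusted p = 0.000346) and by 2.01 ± 0.13 at 4OHT 10h (0.000471) and stayed 1.22 ± 0.13 above untreated cells after inhibition (0.00461). It was lower in inhibited cells than at 4OHT 10h by a log2 difference of -0.79 ± 0.13 (0.0252), a call lost when any array other than those of 4OHT 8h was left out (adjusted p = 0.0544 to 0.127). Ihh, the Indian hedgehog gene, was above background on 6 arrays and had -2.81 and -3.13 in inhibited cells, -3.68 and -3.88 in untreated cells, -3.33 and -3.90 at 4OHT 8h, and -3.27 and -4.10 at 4OHT 10h. Its highest values were in inhibited cells, with a log2 difference of 0.81 from untreated cells (adjusted p = 0.148, and 0.0274 with the replicate block). The probe of Shh, Sonic hedgehog, was above background on 0 arrays and was not tested. Scube3, for a secreted protein that helps release the ligand, differed by -1.63 at 4OHT 8h (adjusted p = 0.13, and 0.048 without either 4OHT 10h array). Hhat, for the enzyme that attaches palmitate to the ligand, differed by -0.13 at 4OHT 8h on the probe used. Its dimmer probe, above background on 5 arrays, differed by -1.63. Both were below untreated cells, and with the 2 averaged Hhat was lower by log2 differences of -1.01 in inhibited cells (adjusted p = 0.0111), -0.88 at 4OHT 8h (0.011) and -1.22 at 4OHT 10h (0.00322), so its calls depend on the probe.

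At the cell surface, Cdon, for the co-receptor related to Boc, was lower in the 4OHT groups. It had -0.13 and -0.34 in inhibited cells, -0.23 and -0.19 in untreated cells, -1.24 and -0.98 at 4OHT 8h, and -0.90 and -0.79 at 4OHT 10h. The inhibited and untreated arrays overlapped, above all 4 arrays with 4OHT alone. Cdon fell by a log2 difference of -0.90 ± 0.12 at 8 h (adjusted p = 0.00558) and -0.64 ± 0.12 at 10 h (0.0133), and rose by 0.61 ± 0.12 in inhibited cells against 4OHT 10h (0.0442). The call at 10 h was lost when any array of those groups was left out (0.0514 to 0.0673), and the rise in inhibited cells when any single array was (0.054 to 0.173). Inhibited cells differed from untreated cells by -0.03. The dimmer Cdon probe moved less, by -0.19 and -0.34 after 4OHT and by 0.40 in inhibited cells against 4OHT 10h.

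Lrp2, which encodes a large endocytic receptor for Hedgehog ligands, had 1.01 and 0.99 in inhibited cells, -0.07 and 0.04 in untreated cells, 0.79 and 0.84 at 4OHT 8h, and 0.57 and 1.04 at 4OHT 10h. It rose by 0.83 ± 0.16 at 8 h (adjusted p = 0.0164) and 0.82 ± 0.16 at 10 h (0.0142), while inhibited cells differed by 0.20 ± 0.16 from 4OHT 10h (0.531) and were 1.02 ± 0.16 above untreated cells (0.0131). The call at 8 h was lost without any 1 array of those groups (0.0597 to 0.0834), that at 10 h without either untreated array (0.0717 and 0.0512), and that of inhibited against untreated cells without any 1 array of those groups (0.056 to 0.0669). Gpc3, for a glypican that binds the ligand, fell by 0.82 at 10 h (0.0162) and was below untreated cells after inhibition by a log2 difference of -0.97 (0.017). Its difference at 8 h was -0.58 (0.0561, and 0.0223 without either inhibited array). The fall at 10 h lost its call without either 4OHT 10h array or untreated replicate 2 (0.069 to 0.0774), and the difference after inhibition without either untreated array (0.0553 and 0.0814).

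**Figure D4:**
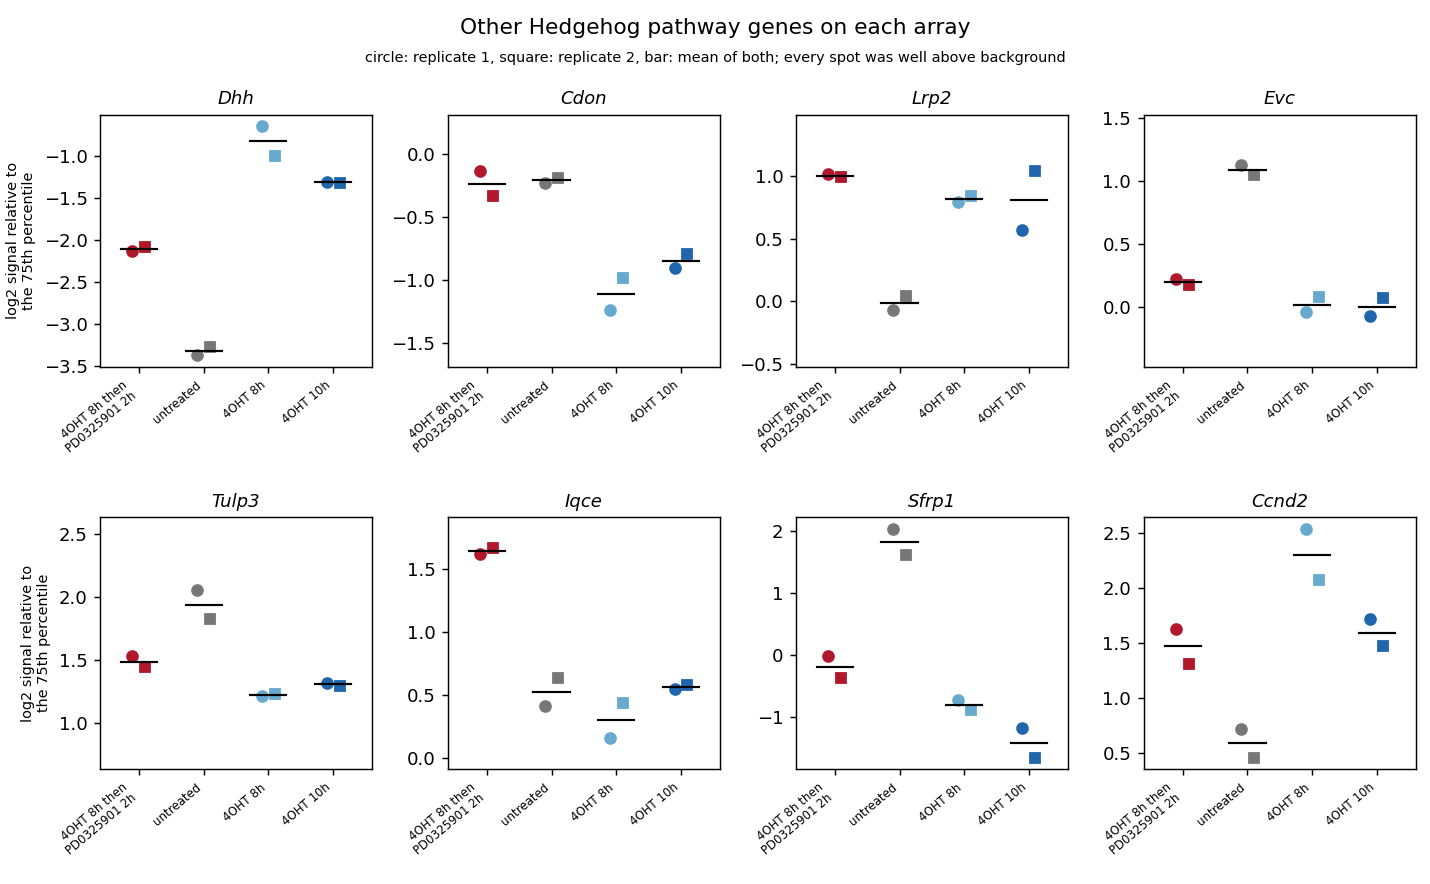
Each panel plots the log2 signal of 1 further Hedgehog gene relative to the array's 75th percentile (y axis, scale of its own) on the 8 arrays by group (x axis), with circles for replicate 1, squares for replicate 2 and bars for group means; every spot was well above background. Dhh is highest in the 4OHT groups, Cdon is lowest there, Evc and Sfrp1 are highest in untreated cells, and Iqce is highest in inhibited cells.

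Among 16 genes of the cilium and signal relay, 0 rose and 4 fell at 4OHT 8h (25% past the threshold, where 21.7% of all genes were). At 4OHT 10h 0 rose and 5 fell (31.2% against 27.9%). In inhibited cells 2 rose and 0 fell against 4OHT 10h (12.5% against 6.12%), and 1 rose and 3 fell against untreated cells (25% against 15.9%). Evc, for a ciliary protein that acts with Smoothened, had 0.22 and 0.17 in inhibited cells, 1.12 and 1.05 in untreated cells, -0.04 and 0.07 at 4OHT 8h, and -0.08 and 0.07 at 4OHT 10h. It was high in untreated cells alone. Evc fell by a log2 difference of -1.07 ± 0.09 at 8 h (adjusted p = 0.00123) and -1.09 ± 0.09 at 10 h (0.000898), and inhibited cells differed from 4OHT 10h by 0.20 (0.26) and stayed below untreated cells by a log2 difference of -0.89 (0.00388, but -0.63 with 0.0899 when its 2 probes were averaged). Its dimmer probe gave -0.41 and -0.80 after 4OHT. Tulp3, for a ciliary trafficking protein that limits the pathway, fell by a log2 difference of -0.72 ± 0.09 at 8 h (0.00552) and -0.63 ± 0.09 at 10 h (0.00667). Ift172, a subunit gene of the intraflagellar transport machinery, fell by a log2 difference of -0.47 ± 0.07 at 8 h (0.00689) and -0.56 ± 0.07 at 10 h (0.00331), the call at 8 h being lost without 4OHT 8h replicate 2 (0.0527). It rose by 0.34 ± 0.07 in inhibited cells against 4OHT 10h (0.0455), a call lost when any single array was left out (0.0745 to 0.206).

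Iqce, whose product tethers the Evc complex at the cilium, was high after MEK inhibition. It had 1.62 and 1.67 in inhibited cells, 0.41 and 0.63 in untreated cells, 0.16 and 0.44 at 4OHT 8h, and 0.55 and 0.58 at 4OHT 10h. Both inhibited arrays stood above all 6 others. Iqce rose by 1.08 ± 0.12 in inhibited cells against 4OHT 10h (adjusted p = 0.0102) and by 1.12 ± 0.12 against untreated cells (0.00543), and did not pass after 4OHT. The first call was lost when any array of either group was left out (0.0564 to 0.0655). Gpr161, for a ciliary receptor that restrains the pathway, fell by 0.72 ± 0.15 at 8 h (0.0206), where it was above background on 1 of 2 arrays. With normexp the difference was -0.16 (0.251). The call was lost in 9 of 17 alternatives, among them quantile normalization (0.0578) and leaving out either 4OHT 8h array or untreated replicate 2 (0.0642 to 0.106). Kif7, for a kinesin of the ciliary tip, fell by 0.38 ± 0.09 at 10 h (0.0311), a call lost without untreated replicate 1 or either 4OHT 10h array (0.114 to 0.121) and reduced by centring on the array median (-0.19, 0.262), with -0.28 at 8 h (0.0911).

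Of 19 kinase and GLI turnover genes, 1 rose and 1 fell at 4OHT 8h (10.5% past the threshold, where 21.7% of all genes were). At 4OHT 10h 3 rose and 1 fell (21.1% against 27.9%), and in inhibited cells against 4OHT 10h 0 rose and 1 fell (5.26% against 6.12%). In inhibited against untreated cells 0 passed in the limma fit, against 15.9% of all genes, and 2 had an unadjusted p under 0.05. Fbxw11, for an F-box protein of the ligase that marks GLI proteins for processing, rose by 0.45 ± 0.08 at 8 h (adjusted p = 0.0144) and 0.53 ± 0.08 at 10 h (0.00701), and fell by 0.43 ± 0.08 in inhibited cells against 4OHT 10h (0.0407). The call at 8 h was lost without untreated replicate 1 or either 4OHT 8h array (0.0649 to 0.0797), and the fall when any single array was left out (0.0605 to 0.205). Its other probe gave 0.33, 0.49 and -0.45. The protein kinase A gene Prkaca (-0.25 and -0.17 at 8 and 10 h) and Gsk3b (-0.23 and -0.16, with its 3 probes differing in sign at 10 h), kinases that phosphorylate GLI proteins, did not pass. Prkacb, for another catalytic subunit of protein kinase A, fell (-0.24 at 8 h, 0.0468, and -0.22 at 10 h, 0.0471), Csnk1a1, for casein kinase 1 alpha, rose by 0.33 at 10 h (0.0471), and Btrc, the paralogue of Fbxw11, rose by 0.33 at 10 h (0.0477). The Prkacb and Btrc calls were lost when any single array was left out, and the Csnk1a1 call without any array other than untreated replicate 2 (0.0684 to 0.191, 0.0634 to 0.165 and 0.0691 to 0.185 at 10 h). Centred on the array median, Prkacb differed by -0.10 (0.48) and -0.03 (0.849). The Btrc rise reversed when its 2 probes were averaged (-0.10 at 10 h, and -0.49 at 8 h with adjusted p = 0.0138).

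Of 12 tested genes known as transcriptional targets in other tissues, 1 rose and 3 fell at 4OHT 8h (33.3%, where 21.7% of all genes passed). At 4OHT 10h 2 rose and 3 fell (41.7% against 27.9%). In inhibited cells 2 rose and 0 fell against 4OHT 10h (16.7% against 6.12%), and 2 rose and 2 fell against untreated cells (33.3% against 15.9%). Sfrp1, for a secreted WNT antagonist, had -0.02 and -0.37 in inhibited cells, 2.04 and 1.61 in untreated cells, -0.73 and -0.89 at 4OHT 8h, and -1.18 and -1.66 at 4OHT 10h. Its order of groups was that of Hhip, with the inhibited arrays above both 4OHT groups and below untreated cells. Sfrp1 fell by a log2 difference of -2.63 ± 0.23 at 8 h (adjusted p = 0.00154) and -3.25 ± 0.23 at 10 h (0.000682), and was 1.22 ± 0.23 higher in inhibited cells than at 4OHT 10h (0.0406, but 0.0576 to 0.165 when any single array was left out). Tbx3, for a T-box transcription factor, had 4.85 and 4.43 in inhibited cells, 5.30 and 5.16 in untreated cells, 3.88 and 3.47 at 4OHT 8h, and 3.50 and 2.99 at 4OHT 10h. It fell by a log2 difference of -1.55 at 8 h and -1.98 at 10 h. The call at 8 h was lost without untreated replicate 1 (-1.48) or 4OHT 8h replicate 2 (-1.35). Tbx3 was 1.39 higher in inhibited cells than at 4OHT 10h (0.0325). That call was lost, at differences of 1.14 to 1.65, without any 1 array other than those of 4OHT 8h. Inhibited cells differed from untreated cells by -0.59 (0.155, and 0.0188 with the replicate block).

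Ccnd2, a D-type cyclin gene, had 1.63 and 1.31 in inhibited cells, 0.72 and 0.46 in untreated cells, 2.54 and 2.07 at 4OHT 8h, and 1.72 and 1.47 at 4OHT 10h. It was highest at 8 h, and inhibited cells overlapped 4OHT 10h. Ccnd2 rose by 1.72 ± 0.21 at 8 h (adjusted p = 0.00425) and 1.01 ± 0.21 at 10 h (0.0187, but 0.0512 to 0.0879 without any 1 array of those groups). Ccnd1 differed by -0.73 ± 0.19 at 8 h (0.0462, but 0.0543 to 0.16 without any 1 array other than 4OHT 8h replicate 2) and by -0.32 at 10 h. Mycn, a MYC family gene, fell by 0.43 at 10 h (0.0208, but 0.0796 to 0.0987 without either 4OHT 10h array or untreated replicate 2, and -0.23 with 0.136 when centred on the array median). It was below untreated cells after inhibition by a log2 difference of -0.63 (0.0112, but 0.0561 and 0.0594 without replicate 2 of either group). Foxa2, for a transcription factor of floor plate and endoderm, had -0.54 and -1.06 in inhibited cells, -2.11 and -3.02 in untreated cells, -1.58 and -2.87 at 4OHT 8h, and -1.32 and -2.55 at 4OHT 10h. The inhibited arrays were highest and replicate 1 exceeded replicate 2 in every group, as for the primitive endoderm markers. The difference between inhibited and untreated cells, 1.76, did not pass (0.111) but did with the replicate block (0.00679), and that from 4OHT 10h, 1.13, went likewise (0.364 and 0.0348).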

How the data were processed

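RNA of 8 samples was amplified with Agilent's Low Input Quick Amp kit for hybridisation to Agilent design 028005 on 1 slide, per the labels' protocols and the file headers. The deposited scanner files hold, per the file headers, the processed signal of Feature Extraction 11.0.1.1, an intensity that is background-subtracted and not scaled between arrays. Median signals and local backgrounds are further intensity columns, and marks of 0 or 1 flag saturated spots, outliers and those well above background. The labels name Cy5 while the files hold 1 channel called green. The deposited value table holds the same intensity on a linear scale, not centred, in the same direction (largest difference 0.497%). The column medians came to 22.4, 29.9, 23.5 and 21.6 for replicate 1 of inhibited cells, untreated cells, 4OHT 8h and 4OHT 10h, and 23.9, 27.9, 26.5 and 23.7 for replicate 2. The arrays' headers name another mouse build than the RefSeq tables, so the probes' coordinates are not used here.

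Control spots (3671 of 62976) and outlier spots (169 to 249 per array) were left out, and 0 spots were saturated. Of 55681 probes 27656 (49.7%) matched 1 symbol through the RefSeq table of GRCm38.p6 and 28025 none. Log2 signals minus each array's 75th percentile were averaged per probe. The filter on dim probes asked for 1 group or more with both arrays well above background (30329 probes), and a gene took its kept probe with the highest mean. limma 3.58.1 in R 4.3.3 fitted a mean per group to all 8 arrays (4 residual degrees of freedom), with two-sided tests, Benjamini-Hochberg adjustment over all genes and a threshold of 0.05, after a check on simulated data. Python 3.11.15 with pandas 2.3.3 and numpy 2.4.6 did the rest. Among spots well above background the lowest signals were 6.68 to 9.58 (replicate 1 arrays) and 14.82 to 19.96 (replicate 2 arrays), which limits how low a level can be measured.

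Replicate numbers match slide rows. For each of the 6 pairs of groups, arrays of the same number deviated together from their group means (r of 0.29 to 0.36). Since the numbers match slide rows, a pairing of samples and an effect of the row cannot be told apart. The main fit leaves the replicate number out, so its standard errors and p-values take no account of this shared deviation. The replicate block among the alternatives does. Group and slide column cannot be told apart. The members, the lists and the rules were chosen with earlier results of these data known, the lists from general knowledge of the pathway. Named beside the 9 members were 13 further genes given by name, up to 4 genes of smallest adjusted p in each of the 5 role lists, Dusp6, and the 3 genes most like each member whose group means span 1 or more; 3 genes that this rule names are not reported here. The alternatives were normexp with an offset of 50, quantile normalization, centring on the array median, the deposited value table, no filter and a stricter filter on dim probes, the mean of a gene's kept probes, the replicate block, an intensity trend with a robust prior, only the groups compared, and each array left out.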

Additional observations from a re-analysis of the deposited data

How the results depend on the processing

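The 4 comparisons gave 12 counts of genes past the threshold (all genes, the 9 members, the 58 other pathway genes), each under 18 alternatives, and 150 of the 216 alternative counts were within 1.5 times the reported one. In the order 4OHT 8h and 10h against untreated cells, then inhibited cells against 4OHT 10h and against untreated cells, the counts over all genes of 4931, 6330, 1388 and 3597 became 2303, 3303, 333 and 1069 when dim probes were not filtered, and 2766, 3981, 327 and 1413 in fits of only the groups compared. With single arrays left out they ranged over 2268 to 4268, 3169 to 5863, 369 to 958 and 1193 to 2649. With the replicate block, the inhibited-cell counts were 2820 and 6286. For the 9 members, the counts of 5, 5, 2 and 3 ranged over 2 to 5, 4 to 5, 2 to 2 and 1 to 3 with single arrays left out, the 8 h count being 3 if untreated replicate 1 is dropped and 2 if 4OHT 8h replicate 2 is, and the last being 1 without untreated replicate 2. With no filter the 8 h count was 3 and the last 1, and with normexp the last was 5. For inhibited cells against 4OHT 10h it was 4 with the replicate block, 4 with an intensity trend and robust prior and 1 with only the groups compared; the block gave 6 against untreated cells. For the other pathway genes, 14, 19, 8 and 12 became 9, 8, 1 and 4 with no filter, and 11, 1 and 6 in the last 3 comparisons with only the groups compared. Left-out arrays gave 8 to 13, 9 to 16, 1 to 4 and 5 to 8. At 4OHT 8h the low counts came without untreated replicate 1 or either 4OHT 8h array, at 4OHT 10h and in inhibited against untreated cells without any array of the groups compared, and in inhibited cells against 4OHT 10h without any array of any group. Centring on the array median gave 5 in inhibited cells against 4OHT 10h, and the block 19 against untreated cells. The cause of these moves was not tested beyond what each setting removes. Centring shifted the median of all genes to 0.10, 0.15, -0.11 and 0.05, and the split of calls to 3008 higher and 1500 lower, 4965 and 1823, 487 and 667, and 1936 and 878 (66.7%, 73.1%, 42.2% and 68.8% higher, beside 47.2%, 47.0%, 53.0% and 44.5% with the 75th percentile). Normexp gave 2892 and 2119, 3619 and 2532, 745 and 773, and 2380 and 1734.

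Of 644 alternative values of single members, 603 kept their side of the threshold, 23 lost a call, 18 gained one and 0 reversed; 9 of the 603 changed sign without a call. Of 1860 for the other genes named, 1624 kept their side, 41 of them with a change of sign and no call, 210 lost a call, 24 gained one and 2 reversed, both of Btrc (-0.49 at 4OHT 8h and -0.10 at 4OHT 10h), when its 2 disagreeing probes were averaged. Left-out arrays took a member's value back over the threshold for Gli2 at 8 h (any array of those groups) and at 10 h (-1.43 without untreated replicate 1, -1.33 without 4OHT 10h replicate 2), Boc at 8 h (-0.77 without untreated replicate 1, -0.87 without 4OHT 8h replicate 2), Smo at 8 h (-0.60 without 4OHT 8h replicate 2), and, in inhibited against untreated cells, Smo (-0.64 and -0.67 without an untreated array, -0.56 without inhibited replicate 2) and Gli1 (0.69 without inhibited replicate 1, 0.70 without untreated replicate 2); Hhip against 4OHT 10h fell short with only the groups compared. The replicate block took over it Gli1 at 8 h, at 10 h and in inhibited cells against 4OHT 10h (0.25, 0.31 and 0.47, each ± 0.06), Boc in both inhibited-cell comparisons (0.78 and -0.56, each ± 0.11), and, against untreated cells, Ptch1 (0.53 ± 0.11) and Gli2 (-1.24 ± 0.09). Ptch1 there also passed with normexp, centring on the array median, the stricter filter on dim probes, and without untreated replicate 1 (0.70). Gli2 against untreated cells and Boc against 4OHT 10h also passed with normexp, the stricter filter, and the intensity trend with robust prior. Gli1 in inhibited cells against 4OHT 10h also passed with that trend and prior. Apart from the blocked calls of Gli1, Boc, Ptch1 and Gli2, the genes for which a blocked value is given in the results, and Btrc (0.30 at 4OHT 8h, adjusted p = 0.028, and 0.33 in inhibited against untreated cells, 0.0262), the block changed no call of a named gene. The filter asking for all 8 arrays above background left out Hhip, Ihh, Scube3 and Gpr161. Signals near background limit Hhip, the unused Hhip and Gas1 probes, the dimmer Hhat probe, Ihh, Gpr161 and Scube3, more so on replicate 2 arrays, where the lowest measurable signal was higher.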
